A study of Mus musculus with 7 samples.

Results

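The clade B serpins are the 27 genes whose symbol begins with *Serpinb* among the 23284 gene symbols in the deposited files. These genes were taken by symbol alone, with no filter on their values, though earlier results of these data were known. They were followed in skin papillomas of 4 CTR mice and 3 TG mice, with a separate RNA-seq library for each mouse. Both groups carried *Col1a1::tetO-Nanog*, a *Nanog* cDNA under a doxycycline-responsive element placed downstream of *Col1a1*, and both drank doxycycline (DOX) at 2 mg/ml during DMBA/TPA skin carcinogenesis, in which the mutagen DMBA starts tumors and repeated TPA, a phorbol ester, promotes them. TG mice also carried *K5-rtTA*, a transactivator under the bovine keratin 5 promoter that is active in the basal layer of stratified epithelia, whereas CTR mice were littermates without it. All mice were on a C57BL/6 background, papillomas were taken when the protocol ended or a mouse reached its humane endpoint, and mice were age-matched, 8 to 10 weeks old when DOX began. TPA treatment was followed by a period of observation, so papillomas taken at the end of the protocol were no longer receiving TPA. The comparison asks how the family stood in papillomas with transgenic *Nanog* against papillomas with the allele alone.

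Serpins are proteins that trap proteases: a protease cleaves an exposed loop of the serpin and is then held in a deformed, inactive complex. Clade B serpins are the branch that mostly lacks a classical secretion signal and acts inside cells or after release. Several are abundant in stratified epithelia, where they face kallikreins and cathepsins, while others protect leukocytes from their own granule proteases. In the mouse the family lies in a pair of gene clusters that grew by duplication, which left groups of closely similar genes such as *Serpinb3a* to *Serpinb3d*.

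Of the 27 genes, 12 lay on chromosome 1 within 747.8 kb (GRCm38, chr1:106861180-107608978) and 15 lay on chromosome 13 within 1161 kb (chr13:32842092-34002794). To enter the test a gene needed at least 0.5 FPKM on average in the 7 libraries, and 16 members reached it, 11 from chromosome 1 and 5 from chromosome 13. FPKM counts the fragments of a gene per kilobase of transcript and per library size, so levels can be set side by side between genes.

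The 150 bases before the annotated start are shown for the 7 members with TGANTCA (N is any base) in the 250 bases before the start. This is a loose form of the AP-1 motif, searched because TPA is a known activator of AP-1 factors. The middle base of the match shown was G in *Serpinb7* and *Serpinb8* and A or T in the other members. The motif is in capitals, reads the same way on both strands, and cannot match the same bases in full as the other motifs searched. All sequences are from RefSeq on GRCm38.p6 and run from 5′ to 3′ on the strand of the gene. *Serpinb11* held a further match farther from its start than the stretch shown.
Serpinb12: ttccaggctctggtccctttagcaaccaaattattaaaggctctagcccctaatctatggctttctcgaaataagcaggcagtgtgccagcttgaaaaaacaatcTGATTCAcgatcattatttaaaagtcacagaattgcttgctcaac
Serpinb2: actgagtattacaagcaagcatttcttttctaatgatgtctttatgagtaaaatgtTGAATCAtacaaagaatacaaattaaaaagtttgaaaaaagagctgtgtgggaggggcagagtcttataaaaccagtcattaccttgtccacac
Serpinb5: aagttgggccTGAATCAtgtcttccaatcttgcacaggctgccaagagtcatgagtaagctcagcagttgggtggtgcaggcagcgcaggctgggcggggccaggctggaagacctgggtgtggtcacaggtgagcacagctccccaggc
Serpinb11: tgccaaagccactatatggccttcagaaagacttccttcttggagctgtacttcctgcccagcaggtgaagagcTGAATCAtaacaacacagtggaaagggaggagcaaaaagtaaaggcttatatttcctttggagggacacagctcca
Serpinb7: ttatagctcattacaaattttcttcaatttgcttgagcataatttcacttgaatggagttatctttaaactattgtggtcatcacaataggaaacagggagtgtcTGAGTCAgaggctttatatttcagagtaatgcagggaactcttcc
Serpinb8: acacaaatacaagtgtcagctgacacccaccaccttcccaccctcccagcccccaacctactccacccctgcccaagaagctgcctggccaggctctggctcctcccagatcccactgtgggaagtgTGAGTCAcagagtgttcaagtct
Serpinb10-ps: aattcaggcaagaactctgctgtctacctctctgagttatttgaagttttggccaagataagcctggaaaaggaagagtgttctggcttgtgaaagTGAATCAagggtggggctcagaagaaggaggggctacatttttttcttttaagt
The *Serpinb12* stretch is chr1:106934299-106934448, that of *Serpinb2* chr1:107511273-107511422, that of *Serpinb5* chr1:106861025-106861174 and that of *Serpinb11* chr1:107362164-107362313, all on the plus strand. The others are chr1:107422539-107422688 for *Serpinb7*, chr1:107589856-107590005 for *Serpinb8* and chr1:107528853-107529002 for *Serpinb10-ps*, also on the plus strand.

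RefSeq promoters were found for 25 of the 27 members, and *Serpinb1a* and *Serpinb13* were not in the table. The loose AP-1 motif was in 7 of the 25 (28%), against 6.87% of 27025 mouse promoters of the same length. Shares for each middle base were not counted. All 7 are the plus-strand members of the chromosome 1 cluster that were in the table, and they include *Serpinb12*, *Serpinb5* and *Serpinb2*, 3 of the 4 members of highest mean level. The motif was not found in the same window of the minus-strand *Serpinb3a* to *Serpinb3d*, nor of the 14 chromosome 13 members searched. The other motifs, TATAAA and TAATGG, were searched on both strands. The TATA motif TATAAA was in 8 of the 25 (32%), against 13% of all promoters searched the same way. Those included all of *Serpinb3a* to *Serpinb3d*, but in *Serpinb3d* the match lay on the strand opposite to the gene. TAATGG, letters of a core bound by NANOG, was only in *Serpinb6d* among the 25 (4%), against 6.61% of all promoters. A match of letters is a description of the window and does not show binding.

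Of the *Serpinb3* genes, *Serpinb3a*, *Serpinb3b* and *Serpinb3c* were also alike before their start. Aligned over the RefSeq promoter windows, *Serpinb3b* and *Serpinb3c* were identical at 88.1% of columns and *Serpinb3a* and *Serpinb3b* at 77.0%, while *Serpinb3d* stood at 49.3% with *Serpinb3a*. The 150 bases before the start are shown for *Serpinb3a* and *Serpinb3b*, whose ratio differed between papillomas as described further on, with the TATA motif in capitals.
Serpinb3a: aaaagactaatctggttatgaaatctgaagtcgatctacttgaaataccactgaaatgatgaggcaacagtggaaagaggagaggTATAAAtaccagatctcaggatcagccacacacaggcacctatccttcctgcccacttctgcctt
Serpinb3b: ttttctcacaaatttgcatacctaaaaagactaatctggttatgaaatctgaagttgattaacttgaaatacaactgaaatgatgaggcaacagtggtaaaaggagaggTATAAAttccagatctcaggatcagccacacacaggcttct
Both lie on the minus strand, at chr1:107052304-107052453 for *Serpinb3a* and chr1:107161115-107161264 for *Serpinb3b*.

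How alike the copies are bears on every level given here, because the reads were 40 bases long and the alignment allowed 2 mismatches and 5 hits. Each transcript was therefore divided into all of its 40-base windows, and the share of windows within 2 mismatches of another *Serpinb* transcript was counted in GENCODE vM21. That share was 0% for *Serpinb2*, *Serpinb5*, *Serpinb7*, *Serpinb8*, *Serpinb11* and *Serpinb12* by this count. *Serpinb10-ps* was at 4.16%, all of it near a transcript of *Serpinb2* other than the representative counted here. It was 69.8% for *Serpinb3a*, 75.3% for *Serpinb3b*, 65.7% for *Serpinb3c* and 39.5% for *Serpinb3d*. Intermediate shares were found for *Serpinb1a* (33.0%), *Serpinb6a* (19.4%), *Serpinb6c* (34.9%) and *Serpinb9* (12.2%). Reads of these genes could have been split between copies, and their levels are uncertain to that extent.

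**Figure D1:**
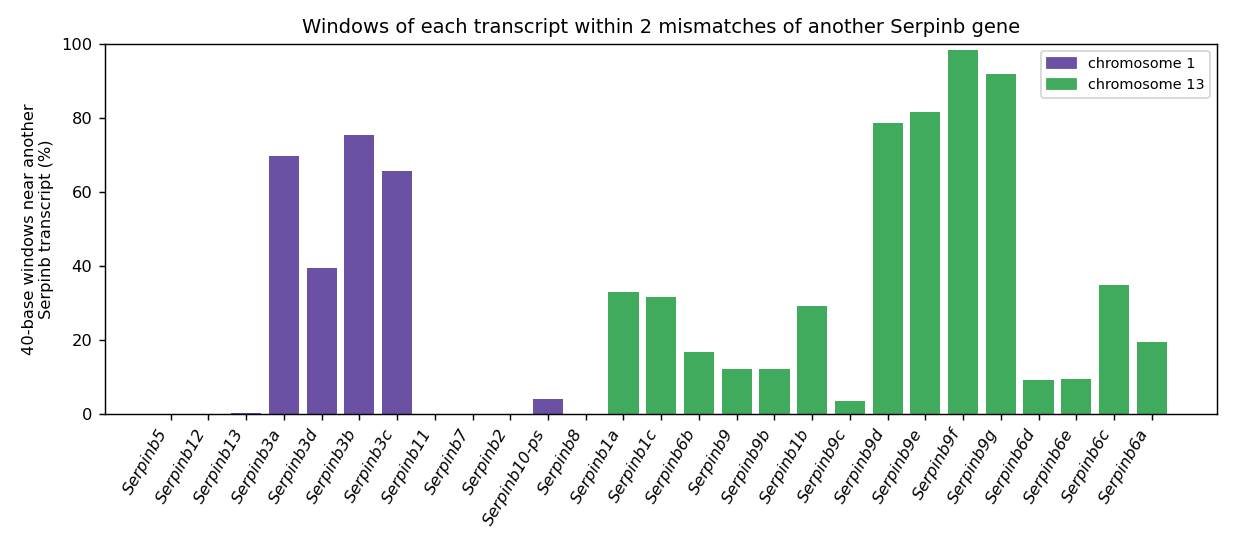
Percent of the 40-base windows of each member's transcript (y axis) that lie within 2 mismatches of another *Serpinb* transcript, for the 27 members in gene order (x axis, chromosome 1 in purple, chromosome 13 in green). The bars of *Serpinb2*, *Serpinb5*, *Serpinb7*, *Serpinb8*, *Serpinb11* and *Serpinb12* are at 0%, while *Serpinb9d* to *Serpinb9g* lie between 78.7% and 98.4%.

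The width of the Cufflinks intervals implied between 10077008 and 15711400 reads on genes per papilloma, an approximate depth, with CTR 3 and TG 1 the deepest. *Nanog*, the gene that was induced, stood at 2.70, 2.84, 12.7 and 3.35 FPKM in CTR 1 to CTR 4 and at 36.9, 57.4 and 66.9 FPKM in TG 1 to TG 3, so the labels and the transgene matched in all 7 papillomas. Keratinocyte markers were abundant in every library, with summed basal markers between 6660 and 12963 FPKM. TG 3 stood apart from the others: summed suprabasal markers were 3847 FPKM in TG 3, 13729 and 14261 in TG 1 and TG 2, and between 7362 and 10153 in CTR papillomas. Its 6 skeletal muscle markers summed to 581.2 FPKM against at most 4.67 elsewhere, its 6 fibroblast markers to 677.9 against at most 128.6, and all 12 of these genes were highest in TG 3. Its 4 hair follicle markers summed to 12.8 FPKM against at most 0.322, and its 4 neutrophil markers found to 42.0 against at most 11.8. In such bulk tissue, fewer cells of a type and less RNA per cell cannot be told apart. The part of this tissue mixture in the differences below was not tested, and log2 differences without TG 3 are given beside those with all 7 papillomas.

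The family made up between 0.259% and 0.559% of the summed FPKM of a papilloma. The 27 members summed to 1564, 2013, 1620 and 1321 FPKM in CTR 1 to CTR 4, and to 1118, 1276 and 971.4 FPKM in TG 1 to TG 3. Every TG sum was below every CTR sum, with means of 1630 ± 286.8 (SD, n = 4) in CTR and 1122 ± 152.4 (SD, n = 3) in TG. Without *Serpinb12* the sums were 817.1, 1257, 922.9 and 873.3 in CTR and 691.1, 909.5 and 709.5 in TG, and the groups overlapped. Thus *Serpinb12* alone held between 27.0% and 47.8% of the family FPKM, and the 7 members with means of at least 50 FPKM held at least 89.5% in every papilloma.

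**Figure D2:**
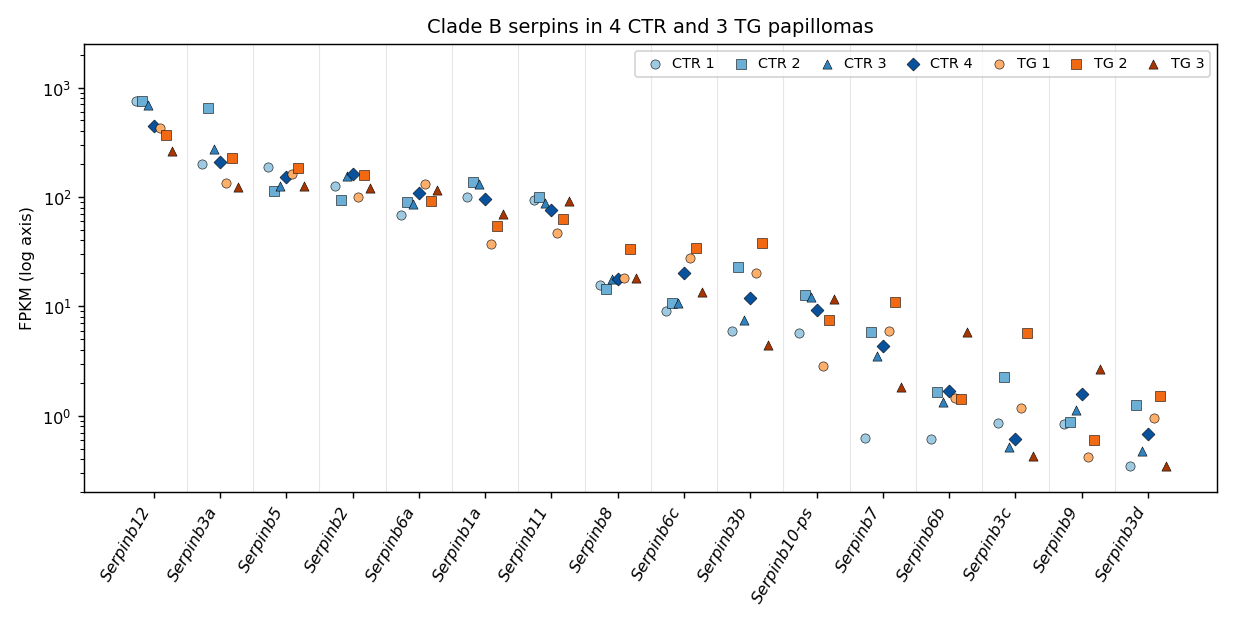
FPKM (y axis, log scale) of the 16 tested members (x axis, in order of mean level) in each papilloma, with CTR 1 to CTR 4 in blue and TG 1 to TG 3 in orange. *Serpinb12* is highest, the 3 TG values of *Serpinb12* and *Serpinb1a* lie below all 4 CTR values, and those of *Serpinb8* lie above.

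The groups were compared by limma on log2(FPKM + 0.5), a scale that understates the change of genes with low values, over all 12299 genes that passed the minimum. No member had an adjusted p under 0.05 in this fit, nor did any of the genes tested (0%). At an unadjusted p under 0.05, 1 member was higher in TG, *Serpinb6c*, where 4.86% of all tested genes were, and 2 members were lower, *Serpinb1a* and *Serpinb12*, where 1.96% of all tested genes were. The values of all 3 TG papillomas lay above all 4 CTR values for 1 of the 16 members, *Serpinb8* (4.93% of all tested genes), and below them for 2, *Serpinb12* and *Serpinb1a* (2.23%). Log2 differences were above 0 for 9 members and below 0 for 7, with a median of 0.19 against 0.06 over all tested genes.

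The balance between higher and lower values depended on the reference. When each papilloma was scaled to 10 genes of epithelial cells such as *Cdh1*, *Krt5* and *Trp63*, the median over all genes shifted by -0.22, and 194 genes were higher (1.58%) and 679 lower (5.52%) at an unadjusted p under 0.05, in place of 598 and 241. Under that scaling 1 member was higher, *Serpinb6c*, and 4 were lower, *Serpinb1a*, *Serpinb12*, *Serpinb3a* and *Serpinb11*, and *Serpinb5* changed its sign. Without TG 3, 3 members were higher at an unadjusted p under 0.05 (5.2% of all genes), *Serpinb6c*, *Serpinb3b* and *Serpinb8*. In the same comparison 5 members were lower (4.38% of all genes), *Serpinb1a*, *Serpinb11*, *Serpinb12*, *Serpinb9* and *Serpinb10-ps*. None of them had an adjusted p under 0.05 there. Without TG 3 the groups did not overlap for *Serpinb6c*, *Serpinb7* and *Serpinb8*, higher in TG (8.94% of all genes), nor for *Serpinb1a*, *Serpinb9*, *Serpinb11* and *Serpinb12*, lower in TG (8.97%).

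**Figure D3:**
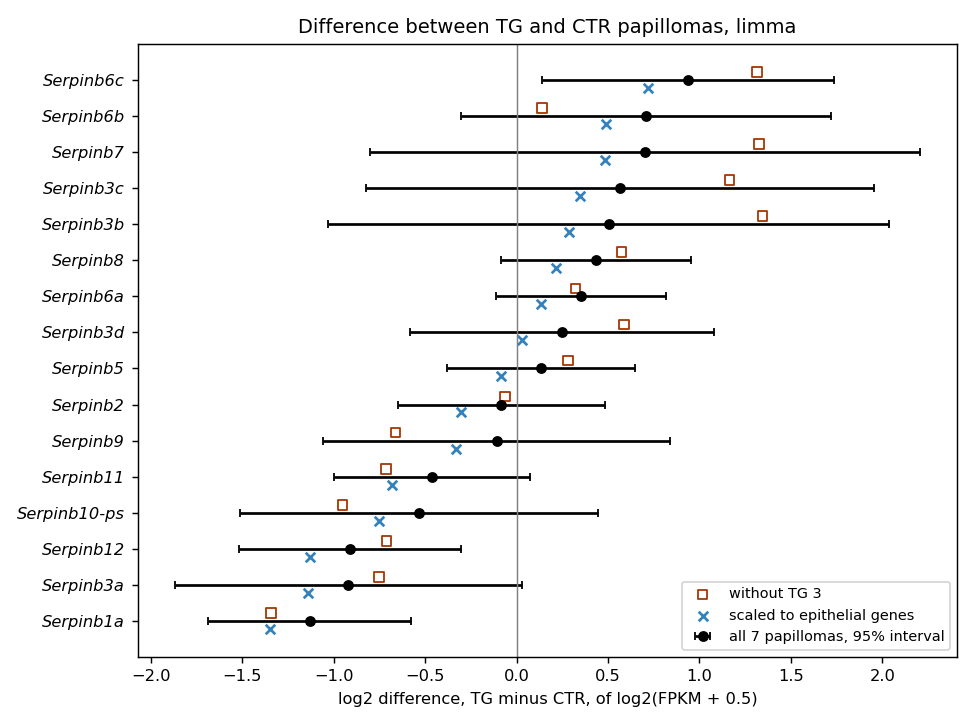
Log2 difference of TG minus CTR from limma (x axis, on log2(FPKM + 0.5)) for the 16 tested members (y axis). Black points and bars show all 7 papillomas with the 95% interval, open squares the values without TG 3 and blue crosses the values after scaling to epithelial genes. The intervals of *Serpinb1a* and *Serpinb12* lie below 0 and that of *Serpinb6c* lies above 0, whereas those of the other members include 0.

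*Serpinb12*, an inhibitor of trypsin-like serine proteases found in surface epithelia, was the most abundant member and ranked 123 among all symbols by mean FPKM. It stood at 746.6, 756.0, 697.3 and 448.0 FPKM in CTR 1 to CTR 4 and at 426.5, 366.5 and 261.9 FPKM in TG 1 to TG 3. All TG values were below all CTR values, but CTR 4 and TG 1 lay close together, and the groups overlapped after upper-quartile scaling and after scaling to epithelial genes. The means were 662.0 ± 145.0 (SD, n = 4) and 351.6 ± 83.3 (SD, n = 3), 1.88 times higher in CTR. The log2 difference was -0.91 (SE 0.27, 95% interval -1.52 to -0.30, limma adjusted p = 0.607), and the two-sided exact permutation test over 35 splits gave p = 0.0571. Without TG 3, where it was lowest, the log2 difference was -0.71 (limma adjusted p = 0.451). Between 7084 and 26723 reads were implied for this gene, so counting error was small against the spread between mice.

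*Serpinb1a*, the mouse form of an inhibitor of neutrophil elastase, proteinase 3 and cathepsin G, had the largest difference of the tested members in either direction. Its levels were 99.7, 137.9, 130.4 and 95.1 FPKM in CTR 1 to CTR 4 and 37.4, 53.7 and 69.6 FPKM in TG 1 to TG 3. The groups were clearly apart, with a mean of 115.8 ± 21.5 (SD, n = 4) in CTR and 53.6 ± 16.1 (SD, n = 3) in TG. On the log2 scale TG was lower by a difference of -1.13 (SE 0.24, 95% interval -1.69 to -0.58, limma adjusted p = 0.538). The two-sided exact permutation p was 0.0286, the smallest that 35 splits can give. Here TG 3 was the TG papilloma closest to CTR, and without it the log2 difference was -1.34 (limma adjusted p = 0.1001). Sample quality weights were 0.562, 3.114 and 0.272 for TG 1 to TG 3, so the weighted TG level rested mostly on TG 2. With them *Serpinb1a* was the only member with an adjusted p under 0.05 (limma adjusted p = 0.0447). With those weights 36 of all tested genes were lower (0.293%) and 49 were higher (0.398%) at that threshold. Its close copies *Serpinb1b* and *Serpinb1c* were below 0.9 FPKM in every papilloma. *Serpinb1c* was also lower in every TG papilloma, at 0.428, 0.608, 0.470 and 0.443 FPKM in CTR and 0.134, 0.227 and 0.356 FPKM in TG, and 31.6% of its windows are shared with other members.

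The target proteases of *Serpinb1a* are carried by neutrophils. The granule proteases of neutrophils and mast cells were low in RNA, with 3 of 7 listed genes tested and no value above 3.30 FPKM. Their proteins were not measured, so these values do not show how much protease was present. The 3 were all mast cell proteases, and no neutrophil protease reached the minimum. None of the 3 had an unadjusted p under 0.05, where 4.86% of all tested genes were higher and 1.96% lower. Their median log2 difference was 0.10, against 0.06 over all tested genes. They were *Mcpt4* at 1.36 ± 0.35 FPKM (SD, n = 4) in CTR and 1.73 ± 1.40 (SD, n = 3) in TG and *Cma1* at 0.662 ± 0.326 and 1.10 ± 0.512 FPKM, and the tryptase *Tpsb2* at 0.996 ± 0.525 and 0.883 ± 0.338 FPKM. Summed neutrophil markers lay between 5.32 and 10.5 FPKM in CTR and at 11.8, 9.56 and 42.0 FPKM in TG 1 to TG 3.

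Among the *Serpinb6* genes, *Serpinb6a*, a broadly expressed inhibitor of cathepsin G and trypsin-like proteases, stood at 69.0, 89.5, 87.0 and 109.4 FPKM in CTR and 130.1, 92.4 and 116.7 FPKM in TG. The TG value was higher in 11 of 12 pairs of papillomas, and the groups overlapped only through CTR 4 and TG 2. Its log2 difference was 0.35 (SE 0.21, limma adjusted p = 0.826) and 0.32 without TG 3. *Serpinb6c*, its close relative, was at 9.02, 10.7, 10.7 and 19.97 FPKM in CTR and at 27.5, 34.1 and 13.7 FPKM in TG. TG 1 and TG 2 were above all CTR papillomas, while TG 3 was below CTR 4. Its log2 difference was 0.94 (SE 0.35, 95% interval 0.14 to 1.74, limma adjusted p = 0.702, two-sided exact permutation p = 0.0857) and became 1.32 without TG 3 (limma adjusted p = 0.169). *Serpinb6b* was low, at 0.613, 1.66, 1.33 and 1.68 FPKM in CTR and 1.45, 1.43 and 5.82 FPKM in TG, with only TG 3 outside the CTR range. The log2 difference of *Serpinb6b* was 0.71 (SE 0.44, limma adjusted p = 0.838) and 0.14 without TG 3. *Serpinb6a* also overlaps 1110046J04Rik, with which 19.2% of its windows are identical, and that gene lay between 0.256 and 1.01 FPKM.

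*Serpinb1a* and *Serpinb6a* stood in a different order in the groups. *Serpinb1a* was 1.45, 1.54, 1.5 and 0.869 times *Serpinb6a* in CTR 1 to CTR 4, and 0.287, 0.581 and 0.597 times in TG 1 to TG 3. Every TG ratio was below every CTR ratio. This pair was chosen after its values were seen, so no p-value is given for it.

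The *Serpinb3* genes are the mouse counterparts of the squamous cell carcinoma antigens of man, which inhibit cysteine cathepsins and chymotrypsin-like proteases. *Serpinb3a* was the second most abundant member, at 199.9, 649.3, 276.6 and 208.6 FPKM in CTR and 135.3, 224.9 and 123.1 FPKM in TG. CTR 2 was far above all others, and TG 2 fell inside the CTR range. TG differed from CTR by -0.92 on the log2 scale (SE 0.42, 95% interval -1.87 to 0.03, limma adjusted p = 0.757, two-sided exact permutation p = 0.171). It was -0.75 without TG 3 and -0.54 without CTR 2.

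*Serpinb3b* had a different profile. It stood at 5.94, 22.9, 7.56 and 11.8 FPKM in CTR and at 20.03, 37.9 and 4.40 FPKM in TG, with TG 2 highest and TG 3 lowest of all 7. *Serpinb3c*, at 0.864, 2.25, 0.514 and 0.617 FPKM in CTR and 1.18, 5.68 and 0.431 FPKM in TG, was likewise highest in TG 2 and lowest in TG 3. *Serpinb3d* lay between 0.349 and 1.52 FPKM, again highest in TG 2, with CTR 1 and TG 3 lowest and nearly equal. The log2 differences of these 3 genes were 0.50 (SE 0.68, limma adjusted p = 0.937), 0.57 (SE 0.61, adjusted p = 0.919) and 0.25 (SE 0.37, adjusted p = 0.948). Without TG 3 that of *Serpinb3b* was 1.34 (limma adjusted p = 0.423), that of *Serpinb3c* 1.16 and that of *Serpinb3d* 0.59, and without TG 2 all 3 differences were below 0.

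The balance between *Serpinb3b* and *Serpinb3a*, chosen after the values were seen, was 0.0297, 0.0353, 0.0274 and 0.0567 in CTR 1 to CTR 4 and 0.148, 0.169 and 0.0357 in TG 1 to TG 3. TG 1 and TG 2 were well above the CTR range, and TG 3 was within it. Since most windows of both genes are shared with other members, the split of reads behind this ratio is uncertain.

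*Serpinb7*, an epidermal member whose human form is lost in a hereditary palmoplantar keratosis, stood at 0.630, 5.84, 3.48 and 4.37 FPKM in CTR and 5.98, 10.97 and 1.85 FPKM in TG. The 2 lowest papillomas were CTR 1 and TG 3 and the highest was TG 2, and no window of this gene is shared with another member. Its log2 difference was 0.70 (SE 0.66, limma adjusted p = 0.892), but it was 1.33 without TG 3, 0.18 without TG 2 and 0.17 without CTR 1. *Serpinb13*, an epithelial inhibitor of cathepsins, was below the minimum with values between 0.0374 and 0.389 FPKM, yet it too was highest in TG 2 and lowest in CTR 1.

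A like order was seen in *Krt1*, a keratin of the suprabasal layers. *Krt1* stood at 187.1, 698.4, 470.3 and 807.1 FPKM in CTR and 1517, 3309 and 132.7 FPKM in TG, with TG 2 highest and CTR 1 and TG 3 lowest. Its partner *Krt10* was at 3150 and 3133 FPKM in TG 1 and TG 2, at 181.3 FPKM in TG 3 and between 916.6 and 1440 FPKM in CTR. *Krt10* did not share the low level of CTR 1, where it was at 1440 FPKM. The other suprabasal markers listed did not all have this order. *Dsg1a* and *Dsc1* were also highest in TG 2 but lowest in CTR 3 and CTR 2. *Calm4* was highest in TG 1 and *Krtdap* in CTR 3, and both were lowest in TG 3. *Krt1* was thus high and low in much the same papillomas as *Serpinb3b* and *Serpinb7*, but this does not hold for suprabasal markers as a set. The part of *Krt1* in these levels was not tested. *Serpinb12* and *Serpinb1a* did not have this order: in TG 1 and TG 2, where *Krt1* and *Krt10* were highest, both were below every CTR papilloma.

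**Figure D4:**
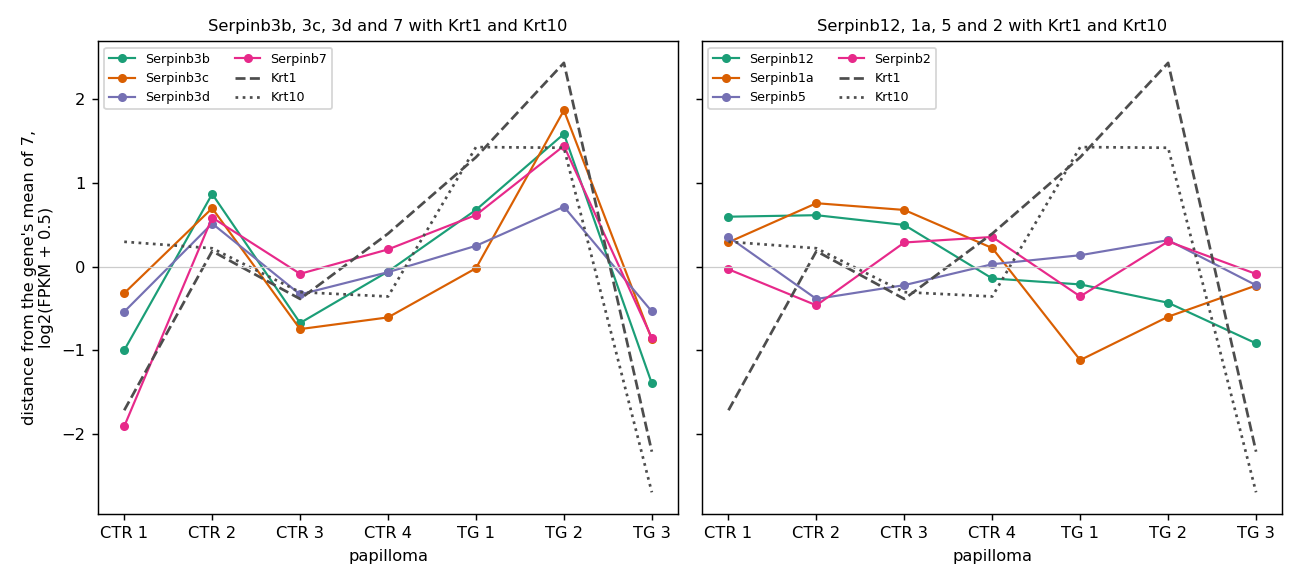
Distance of each papilloma from the gene's mean over the 7 (y axis, log2(FPKM + 0.5)) for CTR 1 to CTR 4 and TG 1 to TG 3 (x axis), with *Krt1* and *Krt10* as broken grey lines in both panels. Lines only join the values of a gene, since papillomas have no order. On the left *Serpinb3b*, *Serpinb3c*, *Serpinb3d* and *Serpinb7* peak in TG 2 with *Krt1*, and on the right *Serpinb12* and *Serpinb1a* lie below their means in all 3 TG papillomas.

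*Serpinb5*, also known as maspin, is an epithelial member that does not act as a classical protease inhibitor. Its groups overlapped, at 189.4, 113.2, 126.9 and 151.0 FPKM in CTR and 162.7, 184.3 and 126.8 FPKM in TG. The highest and lowest of all 7 values were both CTR papillomas. The log2 difference was 0.13 (SE 0.23, limma adjusted p = 0.957), with a 95% interval from -0.38 to 0.65, and it was 0.28 without TG 3 and -0.09 after scaling to epithelial genes. Relative to it, *Serpinb12* was 3.94, 6.68, 5.49 and 2.97 times as high in CTR and 2.62, 1.99 and 2.07 times in TG, a pair that was chosen after the values were seen.

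*Serpinb11*, a neighbor of the *Serpinb3* genes and in the mouse an inhibitor of trypsin-like proteases, stood at 93.2, 99.7, 88.7 and 75.7 FPKM in CTR and 46.4, 62.7 and 91.7 FPKM in TG. TG 1 and TG 2 were below all CTR papillomas and TG 3 was among them. Its log2 difference was -0.46 (SE 0.24, limma adjusted p = 0.807), and it was -0.71 without TG 3 (limma adjusted p = 0.249). *Serpinb10-ps*, which the annotation holds as a polymorphic pseudogene, was likewise lowest in TG 1 and unremarkable in TG 3, at 5.73, 12.6, 12.2 and 9.23 FPKM in CTR and 2.87, 7.45 and 11.8 FPKM in TG. The log2 difference of *Serpinb10-ps* was -0.54 (SE 0.43, limma adjusted p = 0.861), -0.95 without TG 3 and -0.02 without TG 1.

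*Serpinb8*, an inhibitor of the proprotein convertase furin, was the only tested member higher in every TG papilloma. It stood at 15.8, 14.4, 17.8 and 17.7 FPKM in CTR and at 18.3, 33.1 and 18.3 FPKM in TG. The separation was narrow, since TG 1 and TG 3 exceeded CTR 3 by less than 1 FPKM and only TG 2 was clearly higher. The log2 difference was 0.43 (SE 0.23, limma adjusted p = 0.813, two-sided exact permutation p = 0.0286), and it was 0.57 without TG 3 and 0.15 without TG 2. After upper-quartile or epithelial scaling the groups overlapped. *Serpinb9*, the inhibitor of granzyme B, was at 0.847, 0.882, 1.14 and 1.58 FPKM in CTR and 0.416, 0.598 and 2.66 FPKM in TG. TG 1 and TG 2 were the lowest of all 7 papillomas and TG 3 the highest, and the log2 difference was -0.11 with all 7 (limma adjusted p = 0.986) and -0.66 without TG 3 (limma adjusted p = 0.386). Granzymes, which include the target of *Serpinb9*, and perforin, the pore-forming protein that lets them into cells, were not detectable at a useful RNA level. None of 10 listed genes was tested, and no value was above 0.658 FPKM.

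*Serpinb2*, also known as PAI-2, inhibits the plasminogen activator urokinase and is a known target of phorbol esters. It stood at 125.2, 92.8, 156.3 and 163.7 FPKM in CTR and 99.9, 157.7 and 120.4 FPKM in TG, and the groups overlapped throughout. The log2 difference was -0.08 (SE 0.25, 95% interval -0.65 to 0.48, limma adjusted p = 0.981) and -0.06 without TG 3. *Plau*, which encodes its target urokinase, was at 11.9, 12.8, 7.27 and 18.6 FPKM in CTR and 39.8, 32.9 and 34.2 FPKM in TG, above all CTR values in every TG papilloma. The log2 difference of *Plau* was 1.52 (SE 0.28, limma adjusted p = 0.498) and 1.55 without TG 3 (limma adjusted p = 0.127). *Plau* thus did not pass the adjusted threshold in this fit either. The study, by a Cufflinks-based test, lists *Plau* and *Plat* among the genes upregulated in TG papillomas at an FDR under 0.05. *Serpinb2* was 10.5, 7.24, 21.5 and 8.81 times *Plau* in CTR and 2.51, 4.79 and 3.53 times in TG, in a ratio chosen after the values were seen.

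Of the plasminogen activator genes described here, *Plau* alone had an unadjusted p under 0.05, where 4.86% of all tested genes were higher. *Plaur*, the urokinase receptor, was at 3.96 ± 2.20 FPKM (SD, n = 4) in CTR and 6.91 ± 2.58 (SD, n = 3) in TG. *Plat*, the tissue-type activator, was at 49.2 FPKM in TG 3 and at no more than 5.97 FPKM elsewhere.

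Of the cysteine cathepsins that epithelial serpins inhibit, 9 of 10 were tested. None had an unadjusted p under 0.05, where 4.86% of all tested genes were higher and 1.96% lower. For 9 genes a count of 0 is close to those shares. The median log2 difference of the 9 was 0.17, against 0.06 over all tested genes. *Ctsl*, the most abundant, was at 161.1 ± 31.4 FPKM (SD, n = 4) in CTR and 151.9 ± 26.3 (SD, n = 3) in TG. *Ctsb* was at 57.0 ± 4.55 and 71.3 ± 11.8, *Ctsh* at 41.3 ± 9.23 and 46.4 ± 10.7, and *Ctsc* at 32.8 ± 14.4 and 31.6 ± 8.49 FPKM.

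Epidermal serine proteases, which include the kallikreins of cornifying skin, were abundant. The 12 genes with usable estimates of 13 listed had a median log2 difference of 0.06, as did all tested genes. At an unadjusted p under 0.05, 1 was lower, where 1.96% of all tested genes were, and none was higher, where 4.86% were. That gene was *Klk12*, named after its values were seen, at 127.8, 86.7, 162.0 and 98.7 FPKM in CTR and 59.0, 76.0 and 85.1 FPKM in TG (log2 difference -0.67, SE 0.25, limma adjusted p = 0.702, and -0.78 without TG 3). It was lower in every TG papilloma, as were *Serpinb12* and 2.23% of all tested genes. *Klk10* was at 1304 ± 461.9 FPKM (SD, n = 4) in CTR and 859.0 ± 125.1 (SD, n = 3) in TG, and *Klk14* at 1237 ± 396.7 and 701.5 ± 470.7 FPKM. Both overlapped between groups, and *Klk9* at 402.2 ± 113.9 and 413.1 ± 166.9 FPKM and *Klk7* at 294.7 ± 83.0 and 396.8 ± 128.2 FPKM did as well.

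Along chromosome 1, levels did not follow position within the cluster. There *Serpinb12* at 662.0 FPKM in CTR was followed by *Serpinb13* at 0.111 FPKM and then by *Serpinb3a* at 333.6 FPKM. On chromosome 13 the abundant members stood at the ends, *Serpinb1a* at the start and *Serpinb6c* and *Serpinb6a* at the finish, with no gene above 3 FPKM in CTR between them. The genes on either side of *Serpinb12*, *Serpinb5* and *Serpinb13*, overlapped between groups. The genes bordering the chromosome 1 cluster on the near side, *Vps4b* at 28.5 ± 5.16 FPKM (SD, n = 4) in CTR and 29.6 ± 5.04 (SD, n = 3) in TG and *Kdsr* at 4.03 ± 0.229 and 5.19 ± 0.982, overlapped between groups.

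**Figure D5:**
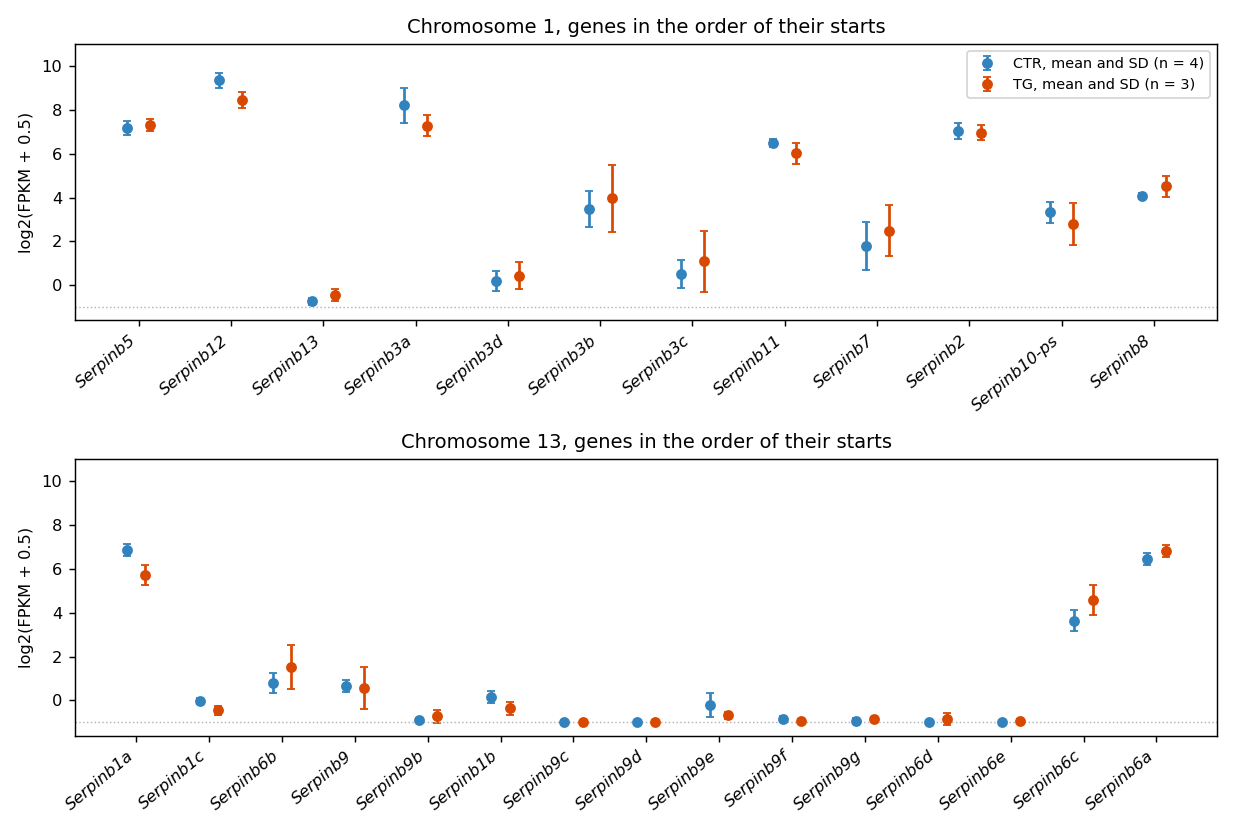
Mean and SD of log2(FPKM + 0.5) (y axis) in CTR (blue, n = 4) and TG (orange, n = 3) for the 27 members in order of their starts (x axis, equal spacing), with chromosome 1 above and chromosome 13 below. The dotted line marks 0 FPKM, and most chromosome 13 members between *Serpinb1a* and *Serpinb6c* lie close to it.

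The 11 members below the minimum were *Serpinb1b*, *Serpinb1c*, *Serpinb6d*, *Serpinb6e*, *Serpinb9b* to *Serpinb9g* and *Serpinb13*. Their highest single value was 0.870 FPKM, for *Serpinb1b* in CTR 2, and 5 of them were listed at 0 in at least 1 papilloma. *Serpinb9c* was listed at 0 in 6 of 7 papillomas and at 0.0319 FPKM in TG 3. *Serpinb6d* was at 0.1999 FPKM in TG 3 and below 0.01 FPKM in the others, too low to compare. *Serpinb9e* was at 0.0297, 0.365, 0.461 and 0.830 FPKM in CTR and 0.0859, 0.0937 and 0.218 FPKM in TG, with 81.7% of its windows shared.

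Among the 16 tested members, the highest value was in TG 2 for 6, in CTR 2 for 5 and in TG 3 for 2. The lowest was in CTR 1 for 5, in TG 1 for 4, in TG 3 for 4 and in CTR 2 for 3. The range within a member was narrowest for *Serpinb5*, whose highest value was 1.67 times its lowest, and widest for *Serpinb7* at 17.4 times.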

How the data were processed

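PolyA+ RNA of 7 papillomas (4 CTR mice, 3 TG mice) was made into stranded libraries and sequenced as single reads of 40 bases. Per the sources used here, the authors used TopHat 2.0.4 (Samtools 0.1.16, Bowtie 0.12.7) on GRCm38/mm10, with 2 mismatches and 5 hits allowed, and then Cufflinks 1.3.0 with a UCSC annotation. The kit for RNA extraction is named differently in the labels (Trizol with RNeasy Mini) and in the study's methods (a fibrous tissue kit). The authors deposited FPKM values, with an interval and a status for each gene. Read numbers are not given, and depth was inferred from the intervals (between 10077008 and 15711400 reads on genes), so it is approximate.

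Entries of a symbol were summed, and 162 symbols with a failed estimate in any library were left out. All 189 values of the members had the status OK. Log2(FPKM + 0.5) values of the 12299 genes that averaged 0.5 FPKM or more were fitted with limma 3.58.1 in R 4.3.3, with a trend, and the Benjamini-Hochberg adjustment ran over all of them. Single genes were also compared by a two-sided exact permutation test over 35 splits, whose smallest p is 0.0286. Nothing says which papillomas, if any, came from the same litter, and p-values measure the spread between these mice. The fit was tested on simulated data for the comparison of TG with CTR, in 12299 genes. It called 81% of 100 genes changed by 2 on the log2 scale and 95% of 100 changed by 4, and 8 of 12099 unchanged genes. The simulated noise was independent between genes and papillomas, with a single spread per gene. Shifts shared by many genes of a papilloma, such as those in TG 3, were not simulated, so these rates may not hold here. In the real data *Nanog*, with a log2 difference of 3.45, had a limma adjusted p of 0.4. The study lists *Nanog* and other genes as upregulated in TG papillomas at an FDR under 0.05 by a Cufflinks-based test. No *Serpinb* gene is in that list.

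The members and lists were chosen with earlier results of these data known. The named genes were every *Serpinb* gene, *Nanog* as a check of the labels, of each list of partner genes the 4 of highest mean FPKM and any past the adjusted threshold, and markers needed beside a result. A partner gene that this rule names is left out here. Alternatives were other pseudocounts, filters, scalings, moderation and weights, a replicate block, the libraries of lower depth, other handling of entries, and leaving out each papilloma. Promoters and starts were from RefSeq (GRCm38.p6), and transcripts for the window count from GENCODE vM21. Python 3.11.15 with numpy 2.4.6, pandas 2.3.3, biopython 1.88 and matplotlib 3.10.9 was used.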

Additional observations from a re-analysis of the deposited data

Results flagged for a closer look

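In the 4 CTR papillomas, the gap between the highest or lowest value and the nearest other, divided by the range, was examined by Dixon's test at the 95% level for 17 genes, the 16 tested members and *Nanog*. It passed the limit for 3 of them, where chance passes about 1 in 20 groups. *Serpinb3a* was at 649.3 FPKM in CTR 2, far above the other CTR papillomas, and only just past the limit. *Serpinb6c* was at 19.97 FPKM in CTR 4, and its closest CTR value was 10.7 FPKM. *Nanog* was at 12.74 FPKM in CTR 3, against at most 3.35 FPKM in the other CTR papillomas. Only groups of at least 4 are examined in this way, so the 3 TG papillomas were not.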

How the results depend on the processing

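Under 20 alternatives, 300 of 316 log2 differences of the members kept their direction and their side of the adjusted threshold. Another 15 changed sign and 1 passed the threshold (*Serpinb1a* with sample quality weights). Other filters, the fit without a trend and other handling of entries could not change a member's log2 difference. Their agreement in direction was fixed in advance, so the count of 300 overstates how stable the differences were. *Serpinb12* and *Serpinb1a* stayed lower in TG under all of them, with log2 differences from -1.13 to -0.69 and from -1.35 to -0.83. The cause of the changes below was not tested. With sample quality weights, 85 genes passed the adjusted threshold in place of 0, 1161 genes were higher and 1248 lower at an unadjusted p under 0.05, 6 members were higher, 1 member passed the adjusted threshold, and *Serpinb2* was at 0.0024. Without a filter 961 genes were higher. With upper-quartile scaling 439 genes were lower, 0 members were higher, and the groups did not overlap for 0 members higher and 1 lower. With quantile normalization 551 genes were lower and 0 members higher. With epithelial scaling 194 genes were higher and 679 lower, 4 members were lower, the groups did not overlap for 0 members higher and 1 lower, and *Serpinb5* was at -0.088. In the papillomas of lower depth 1 gene passed the adjusted threshold, 0 members were higher, and *Serpinb10-ps*, *Serpinb2* and *Serpinb9* were at 0.095, 0.15 and 0.25. Leaving out each papilloma in turn gave 0 to 2 genes past the adjusted threshold, and at an unadjusted p under 0.05 gave 364 (without CTR 3) to 825 genes higher, 122 (without TG 2) to 539 (without TG 3) lower, and 0 to 3 members higher and 2 to 5 lower. The 3 members higher and 5 lower were without TG 3, and no member was higher without CTR 1, CTR 2, CTR 3, TG 1 or TG 2. Members without overlap then numbered 1 to 3 higher (3 without CTR 4 or TG 3) and 2 to 4 lower (4 without TG 3). Of all tested genes, 4.93% were higher and 2.23% lower without overlap when every papilloma was kept. Leaving out TG 3 raised these shares to 8.94% and 8.97%. Shares over all genes are not given for the other papillomas left out or for the scalings, so those member counts have no background here. When a papilloma was left out, log2 differences changed sign for *Serpinb2*, without CTR 4 or TG 1 (range -0.26 to 0.069), and *Serpinb9*, without CTR 4, TG 1 or TG 2 (-0.66 to 0.23). They did so without TG 2 for *Serpinb3b* (-0.14 to 1.34), *Serpinb3c* (-0.20 to 1.16) and *Serpinb3d* (-0.038 to 0.59). The groups share replicate numbers, and deviations of same-numbered papillomas from their group means had correlations of -0.186, 0.043 and -0.146. So few pairs cannot show whether same-numbered papillomas shared a litter or a batch. With the replicate block 0 genes passed the adjusted threshold, and *Serpinb2* and *Serpinb9* were at 0.021 and 0.020. Low members such as *Serpinb3d*, with 6 to 26 implied reads in a papilloma, are limited by depth.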
